A study of Mus musculus with 16 samples.

Results

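In mouse clear cell sarcoma driven by the fusion EWSR1::ATF1, 1508 clusters of neighbouring H3K27ac peaks held at least 1 peak of the V5-tagged fusion. H3K27ac is a histone mark that active promoters and enhancers carry. The clusters were made by joining the H3K27ac peaks of a chromosome across gaps of at most 12 kb, which gave 16205 regions. Of these, 2450 had at least 3 H3K27ac peaks, and the 1508 that shared at least 1 bp with a V5 peak are called fusion-holding clusters here. The other 942 are called fusion-free clusters. The members were thus chosen by the H3K27ac and V5 peaks themselves, so their V5 and H3K27ac values are descriptions and were not tested. Genes, RNAPOL2 and DNA sequence were not used in the choice.

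The tumours arose in mice of a mixed 129/SvJ and C57Bl/6 background that carried a human EWSR1::ATF1 type 1 cDNA with a V5 tag at the Rosa26 locus behind a loxP-flanked stop, and a Cre protein that enters cells (TATCre) was injected into the hindlimb to switch it on. No group without the fusion was part of the ChIP-seq, and whole tumours were used, so H3K27ac and RNAPOL2 can also come from other cells of the tumour, and fewer cells with a mark cannot be told apart from less of it per cell. The 16 labelled samples were 4 with an antibody against V5, 4 against RNAPOL2 (phosphorylated RNA polymerase II), 4 against H3K27ac and 4 of input chromatin, while its methods list a larger number for the V5 and RNAPOL2 antibodies. Each antibody is represented by 1 peak list, with 10665, 20375 and 27552 peaks. The study also names a larger total of fusion sites than this V5 list holds, and the step between them is not stated here, so fusion-free means without a peak of this list. The lists give no depth and no value per sample, so clusters and peaks are counted and not tumours. Each peak carries a score whose scale is not stated, and scores are compared only within 1 list.

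Long runs of acetylated chromatin are a feature of super enhancers, stretches in which many enhancers lie close together and which often surround genes of cell identity. ATF1 belongs to the ATF/CREB family of basic leucine zipper (bZIP) proteins, which bind TGACGTCA and act on genes that respond to cyclic AMP. The fusion keeps the DNA-binding part of ATF1, and the part from EWSR1 activates transcription. Stitching of this kind is how such stretches are first outlined, and no ranking by reads followed here.

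DNA under the fusion in these clusters is shown first. Each line below is 200 bp of the plus strand of mm10 (GRCm38) around the middle of a V5 peak, with motifs in capitals. The motifs searched on both strands were the canonical ATF/CREB motif TGACGTCA, the AP1 motif TGAGTCA, the other forms of TGANNTCA (variants), and strings of at least 5 units of TGA or TCA with gaps of at most 5 bp. The first 3 cannot be the same site, whereas a string can contain any of them. A match describes the letters and does not show that a protein bound them. The first 4 lines are the highest-scored V5 peaks of 4 of the 6 clusters with the most V5 peaks. The Auh and Fos windows were intergenic, the Klf14 window lay in an intron of the noncoding gene Lncpint, and the Tmem182 window lay in an intron of that gene. The window of the Atp6v0e cluster lies in a UTR, and neither it nor that of the Celf4 cluster is printed.
Auh cluster, V5 score 4927 (chr13:52822416-52822615): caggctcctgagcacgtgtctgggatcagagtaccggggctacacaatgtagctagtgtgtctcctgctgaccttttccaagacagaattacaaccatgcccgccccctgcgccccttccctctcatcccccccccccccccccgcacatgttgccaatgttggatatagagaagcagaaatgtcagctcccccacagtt
Klf14 cluster, V5 score 1604 (chr6:31134706-31134905): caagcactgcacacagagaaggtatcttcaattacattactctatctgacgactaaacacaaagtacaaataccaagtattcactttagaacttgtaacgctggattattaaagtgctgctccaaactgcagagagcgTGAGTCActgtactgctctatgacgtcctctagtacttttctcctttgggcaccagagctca
Fos cluster, V5 score 1843 (chr12:85440476-85440675): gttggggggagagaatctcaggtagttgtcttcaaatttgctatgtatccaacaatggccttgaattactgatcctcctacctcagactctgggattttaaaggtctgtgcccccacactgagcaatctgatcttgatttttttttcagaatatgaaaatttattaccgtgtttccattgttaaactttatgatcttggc
Tmem182 cluster, V5 score 14422 (chr1:40812171-40812370): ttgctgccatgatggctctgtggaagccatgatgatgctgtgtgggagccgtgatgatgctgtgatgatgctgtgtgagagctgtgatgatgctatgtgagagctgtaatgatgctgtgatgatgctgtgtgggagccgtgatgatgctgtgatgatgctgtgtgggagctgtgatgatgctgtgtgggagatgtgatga

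Of the 4 printed windows, that of Klf14 held a motif, an AP1 site, and the others held none of those searched. The Tmem182 window held the 4th highest V5 score of the whole list and carried many TGA units, none of them in a run that met the string definition. The next 3 lines are high-scored V5 peaks of other clusters, with the canonical motif, the AP1 motif and a string. The Mfhas1 window was intronic and held 1 canonical motif, 2 variants and a string of 5 units. The other windows were intergenic, 82205 bp from the nearest protein-coding start (Rgs2) and 5168 bp from that of Scgn.
Mfhas1 cluster, V5 score 4768 (chr8:35616046-35616245): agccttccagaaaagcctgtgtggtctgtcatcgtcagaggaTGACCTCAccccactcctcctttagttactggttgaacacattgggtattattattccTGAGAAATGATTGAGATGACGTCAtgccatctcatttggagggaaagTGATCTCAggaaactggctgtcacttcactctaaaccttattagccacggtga
Cluster nearest to Rgs13, V5 score 7133 (chr1:144086266-144086465): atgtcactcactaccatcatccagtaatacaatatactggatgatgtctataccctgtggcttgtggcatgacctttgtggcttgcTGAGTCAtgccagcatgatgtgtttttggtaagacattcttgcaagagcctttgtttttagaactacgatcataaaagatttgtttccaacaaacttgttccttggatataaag
Hist1h2aa cluster, V5 score 12740 (chr13:23950311-23950510): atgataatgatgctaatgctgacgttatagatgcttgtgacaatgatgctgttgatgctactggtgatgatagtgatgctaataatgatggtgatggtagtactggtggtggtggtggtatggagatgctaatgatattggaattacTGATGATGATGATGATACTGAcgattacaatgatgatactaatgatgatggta

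The last 4 lines hold a canonical motif and come from clusters of listed genes that respond to cyclic AMP or limit MAP kinases. They were chosen after the values had been seen. Pde4d encodes a phosphodiesterase that degrades cyclic AMP, Sik1 a kinase induced by it, Dusp1 a phosphatase of MAP kinases and Nr4a1 an orphan nuclear receptor of the immediate early response. The Pde4d window overlapped an exon of that gene. The Sik1 window lay 332 bp from the Sik1 start. The Nr4a1 window held a canonical and an AP1 motif and lay 4526 bp from the start of Atg101.
Pde4d cluster, V5 score 4404 (chr13:109761076-109761275): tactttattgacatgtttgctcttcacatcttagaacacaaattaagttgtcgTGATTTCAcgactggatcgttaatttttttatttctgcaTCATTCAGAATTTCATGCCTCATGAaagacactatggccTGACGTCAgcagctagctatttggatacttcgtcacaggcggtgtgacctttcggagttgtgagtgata
Sik1 cluster, V5 score 2059 (chr17:31856036-31856235): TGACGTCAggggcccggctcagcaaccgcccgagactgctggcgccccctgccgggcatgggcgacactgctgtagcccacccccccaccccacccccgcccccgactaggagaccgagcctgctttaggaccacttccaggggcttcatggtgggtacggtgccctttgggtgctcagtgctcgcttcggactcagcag
Dusp1 cluster, V5 score 636 (chr17:26538141-26538340): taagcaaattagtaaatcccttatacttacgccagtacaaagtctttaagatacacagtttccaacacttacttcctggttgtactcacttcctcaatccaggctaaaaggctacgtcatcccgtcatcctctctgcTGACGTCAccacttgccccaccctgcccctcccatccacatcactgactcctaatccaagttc
Nr4a1 cluster, V5 score 351 (chr15:101279646-101279845): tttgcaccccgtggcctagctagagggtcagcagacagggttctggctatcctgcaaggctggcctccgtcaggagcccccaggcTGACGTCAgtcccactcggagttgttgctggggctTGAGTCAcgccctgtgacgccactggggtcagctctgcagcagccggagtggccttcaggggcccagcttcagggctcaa

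The fusion-holding clusters spanned 3.13 to 134 kb, with a median of 20.9 kb and quartiles of 14.3 and 32.5 kb. They covered 39.4 Mb in all, of which 40.8% lay under H3K27ac peaks. The fusion-free clusters had a median width of 17.2 kb, and 33.0% of their 18.5 Mb was acetylated. The highest H3K27ac score in a cluster had a median of 1008 in fusion-holding and 662.5 in fusion-free clusters. At the threshold of the rule, 1258 of the 2814 regions with 2 H3K27ac peaks held V5 (44.7%, median width of the holders 7.49 kb), and 604 of the 1116 clusters with 3 peaks did (54.1%, 14.3 kb). The V5 peak nearest to a fusion-free cluster lay at a median of 62.7 kb (quartiles 31.8 and 129.955 kb), and 12 fusion-free clusters had one within 12 kb.

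Most fusion-holding clusters held few V5 peaks. Of the 1508, 673 held 1 V5 peak (44.6%, Wilson 95% interval 42.1 to 47.1), 384 held 2 (25.5%) and 451 held at least 3 (29.9%). At least 5 were held by 129 clusters (8.55%), at least 8 by 29 and at least 10 by 10. The 129 clusters with at least 5 contained 833 of the 3357 V5 peaks that lay in clusters (24.8%, 23.4 to 26.3). In 349 clusters membership rested on a single V5 peak that scored below the median of the V5 list. Neighbouring V5 peaks of a cluster had their middles 6.29 kb apart at the median (quartiles 3.20 and 11.6 kb, 1849 spacings).

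Wider clusters held more V5 peaks, and had a lower density than the narrowest ones. Clusters with 1 V5 peak had a median width of 18.5 kb, and those with 2, with 3 to 4, with 5 to 7 and with 8 or more had 19.1, 28.3, 43.8 and 77.1 kb. The rank correlation of V5 number with width over the 1508 clusters was 0.382, with H3K27ac peak number 0.385 and with the acetylated bases 0.497. These correlations are given as descriptions, because all clusters share the same lists. Counted over all 2450 clusters, so that clusters without V5 are included, the density was 1.01 V5 peaks per 10 kb in clusters under 10 kb (exact Poisson 95% interval 0.887 to 1.15) and 0.645 (0.605 to 0.687) at 10 to 20 kb. At 20 to 40 kb it was 0.509 (0.481 to 0.538), at 40 to 80 kb 0.552 (0.514 to 0.593) and at 80 kb or more 0.626 (0.540 to 0.722). The narrowest clusters thus had the highest density, and the 4 wider classes lay between 0.509 and 0.645. Per 10 kb of acetylated sequence the values of the same 5 classes were 1.81, 1.71, 1.44, 1.42 and 1.30. Within fusion-holding clusters alone the density was 1.93 in the narrowest and 0.685 in the widest class, but there a narrow cluster needed 1 peak to be counted at all. All such intervals in the text cover counting error only.

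**Figure D1:**
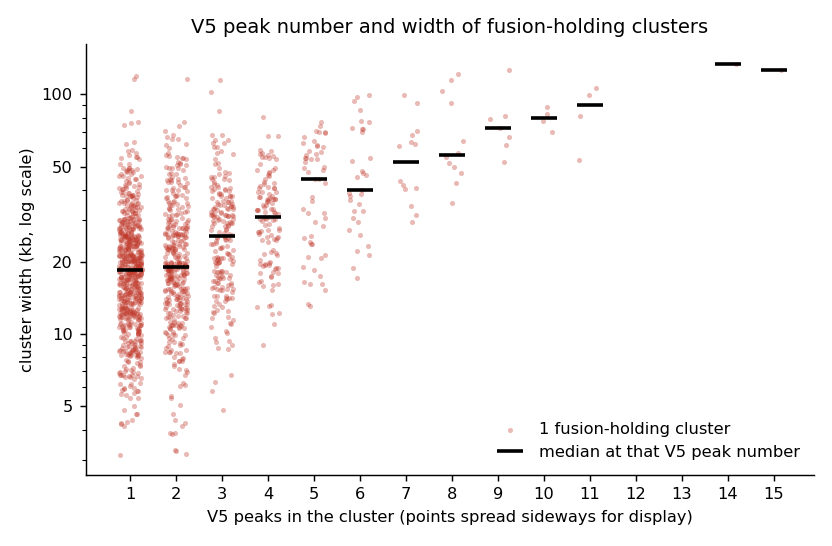
Each point is 1 of the 1508 fusion-holding clusters, with its number of V5 peaks on the horizontal axis and its width in kb on a vertical log scale. Bars mark the median width at each V5 number. The widths of clusters with 1 or 2 V5 peaks spread over almost the whole range, and the 29 clusters with at least 8 V5 peaks sit at the wide end (median 77.1 kb).

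The V5 peaks of the clusters lay almost wholly on acetylated sequence, which the rule favours because the clusters are runs of H3K27ac peaks. Of the 3357, 3280 overlapped an H3K27ac peak (97.7%, 97.1 to 98.2) and 77 lay in the gaps between them. Among V5 peaks outside the clusters, 4547 of 7308 overlapped an H3K27ac peak. In the other direction, 3055 of the 7205 H3K27ac peaks of the clusters held V5 (42.4%, 41.3 to 43.5). The highest-scored H3K27ac peak of the cluster held V5 in 1070 clusters (71.0%), where the mean share of H3K27ac peaks with V5 per cluster was 45.4%. V5 lay on every H3K27ac peak in 127 clusters (8.42%). By score, 12 of the 20 highest V5 peaks of the list lay in fusion-holding clusters, as did 62 of the highest 100 (62.0%) and 248 of the highest 500 (49.6%), compared with 31.5% of all V5 peaks.

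Chromosomes differed in how many of their clusters held the fusion. Among the autosomes the share was highest on chromosomes 13 (80 of 99, 80.8%) and 18 (53 of 66, 80.3%) and lowest on chromosome 11 (100 of 208, 48.1%). On chromosome X, 3 of 14 clusters held V5 (21.4%, 7.57 to 47.6), compared with 1504 of 2435 on the autosomes (61.8%).

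Genes were examined next, because the rule did not use them. A promoter here is the 3 kb to either side of any annotated transcription start site (TSS) in GENCODE vM21. A protein-coding promoter lay in 1020 of the 1508 fusion-holding clusters (67.6%, 65.2 to 70.0), compared with 741 of the 942 fusion-free clusters (78.7%, 75.9 to 81.2). Compared within strata of H3K27ac peak number, the Mantel-Haenszel odds ratio was 0.495 (0.408 to 0.602, two-sided Cochran-Mantel-Haenszel chi-square test, p = 1.05e-12, adjusted p = 2.53e-12 over 12 tests). Fusion-holding clusters were thus less often at protein-coding promoters than fusion-free clusters with as many H3K27ac peaks. The difference was not detected (odds ratio 0.931, 0.605 to 1.43) when H3K27ac peaks near a TSS were left out before stitching, and it was larger (0.178, 0.0812 to 0.391) with the upper 50% of RNAPOL2 and H3K27ac peaks by score. Counting over clusters describes these lists and not the spread between tumours.

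The number of genes showed the same order. No protein-coding TSS lay in 506 fusion-holding clusters (33.6%, 31.2 to 36.0) and in 219 fusion-free clusters (23.2%, 20.7 to 26.1). A single gene had a TSS in 610 fusion-holding clusters (40.5%), and 201 held 3 genes or more (13.3%). Gene number did not rise with V5 number over the clusters as a whole, as the rank correlation of V5 number with gene number over the 1508 clusters was -0.166. A protein-coding promoter lay in 76.5% of the clusters with 1 V5 peak (73.2 to 79.6) and in 57.6% of those with 2 (52.6 to 62.4), and the share was 61.5%, 66% and 69.0% with 3 to 4, 5 to 7 and 8 or more. In 612 clusters every V5 peak was distal, meaning outside all promoters (40.6%), and this included 228 of the 1020 clusters that do contain a protein-coding promoter (22.4%).

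In all, 1809 of 21938 protein-coding genes had a TSS in a fusion-holding cluster, a background of 8.25% for the gene lists given further on. A further 1238 had a TSS in a fusion-free cluster only (5.64%). Any annotated transcript counted, so a gene can enter by a minor start. Of the 1809 genes, 1015 had a V5 peak at a promoter of their own (56.1%, 53.8 to 58.4) and the others had it only elsewhere in the cluster. Among all protein-coding genes the share was 16.6% (3640 of 21938), but the rule itself raises it here, since each of these clusters holds V5. An RNAPOL2 peak lay at a promoter of 1696 of the 1809 genes (93.8%, 92.5 to 94.8). The same was found for 1118 of the 1238 genes in fusion-free clusters (90.3%, 88.5 to 91.8) and for 53.5% of all protein-coding genes.

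Phosphorylated RNA polymerase II is found on genes that are being transcribed. At least 1 RNAPOL2 peak lay in 1169 of the 1508 fusion-holding clusters (77.5%, 75.3 to 79.6) and in 708 of the 942 fusion-free clusters (75.2%, 72.3 to 77.8). Within strata of H3K27ac peak number the odds ratio was 0.966 (0.796 to 1.17, Cochran-Mantel-Haenszel chi-square p = 0.728, adjusted p = 0.874), and the interval spans 1. The sign depended on how clusters were made and on what was held equal. With the same strata the odds ratio ranged from 0.297 (0.152 to 0.582) with the upper 50% of RNAPOL2 and H3K27ac peaks and 0.655 (0.540 to 0.795) with the upper 50% of V5 peaks to 1.79 (1.16 to 2.75) with at least 5 H3K27ac peaks per cluster. With presence of a promoter added to the strata, the odds of an RNAPOL2 peak were higher in fusion-holding clusters (odds ratio 1.39, 1.11 to 1.74, chi-square adjusted p = 0.00574). With strata of acetylated bases they were lower (0.621, 0.5002 to 0.770, chi-square adjusted p = 2.29e-05). When the question was whether RNAPOL2 covered at least the median share of cluster width, the odds ratio was 1.44 (1.22 to 1.70).

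Split by promoters, an RNAPOL2 peak lay in 946 of the 1020 fusion-holding clusters with a protein-coding promoter (92.7%, 91.0 to 94.2) and in 638 of the 741 such fusion-free clusters (86.1%, 83.4 to 88.4). Without one the shares were 45.7% (223 of 488, 41.3 to 50.1) and 34.8% (70 of 201, 28.6 to 41.6). RNAPOL2 covered a median of 15.01% of the width of fusion-holding clusters with a protein-coding promoter and 9.55% of such fusion-free clusters. Among the 329 fusion-holding clusters with no promoter of any gene, 127 still held RNAPOL2 (38.6%, 33.5 to 44.0).

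**Figure D2:**
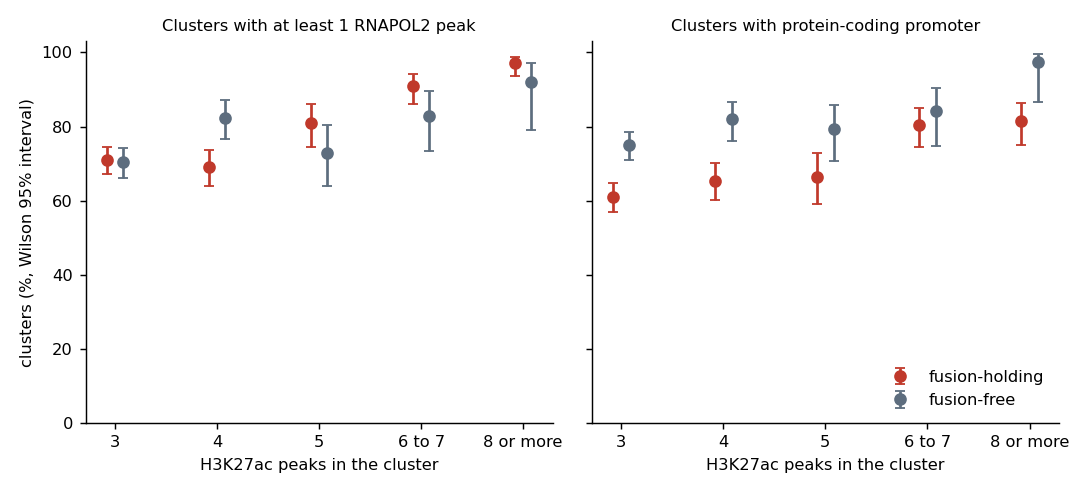
Clusters with at least 1 RNAPOL2 peak (left) and with a protein-coding promoter (right), in percent, by number of H3K27ac peaks in the cluster. Points are shares with Wilson 95% intervals for fusion-holding (red) and fusion-free (grey) clusters. In the right panel the red points lie below the grey points in all 5 classes, from 60.9% against 75% at 3 peaks to 81.5% against 97.4% at 8 or more. In the left panel the order changes between classes.

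Clusters with many V5 peaks were also rich in RNAPOL2. An RNAPOL2 peak lay in 79.2% of the clusters with 1 V5 peak (75.97 to 82.1), in 70.1% with 2 (65.3 to 74.4), in 77.0% with 3 to 4 (72.1 to 81.3), in 90.0% with 5 to 7 (82.6 to 94.5) and in 29 of 29 with at least 8 (100%, 88.3 to 100). RNAPOL2 covered a median of 10.7%, 8.67%, 10.6%, 14.6% and 34.6% of their width. The quartiles of the last class were 15.9% and 69.5%, and those of the first were 3.54% and 21.3%. Over all 1508 clusters the rank correlation of V5 number with the covered share was only 0.0750, so the rise rests on the small number of clusters with the most V5 peaks. These clusters were also the widest and the most acetylated (a median of 56.1% of their width, compared with 34.2% with 1 V5 peak), and the part of either in the RNAPOL2 values was not tested.

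**Figure D3:**
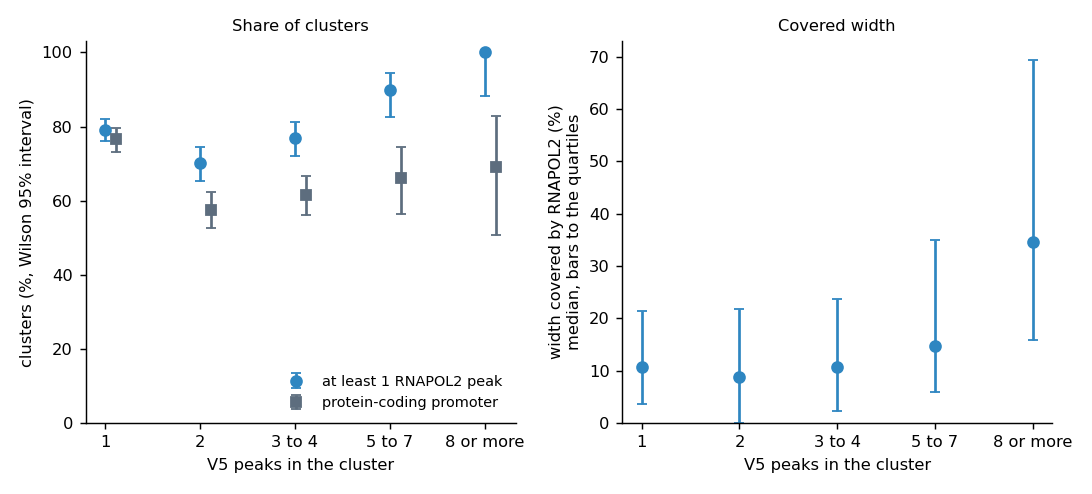
Left, the percentage of fusion-holding clusters with at least 1 RNAPOL2 peak (circles) and with a protein-coding promoter (squares), by number of V5 peaks, with Wilson 95% intervals. Right, the percentage of cluster width covered by RNAPOL2, as medians with bars to the quartiles. The median stays between 8.67% and 14.6% up to 7 V5 peaks and is 34.6% in the 29 clusters with 8 or more.

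Within a cluster, H3K27ac peaks with V5 were compared with those without. RNAPOL2 overlapped 1622 of the 3055 H3K27ac peaks with V5 (53.1%, 51.3 to 54.9) and 1754 of the 4150 without (42.3%, 40.8 to 43.8). At promoters the shares were 76.8% and 61.3%, and at distal peaks 34.4% and 27.1%. Compared inside the same cluster and promoter class, the odds ratio was 4.25 (3.56 to 5.06, Cochran-Mantel-Haenszel chi-square p = 6.04e-71, adjusted p = 7.25e-70, 714 informative strata). H3K27ac peaks with V5 were also much wider, with a median of 2750 bp at promoters and 1890 bp at distal sites, compared with 1480 and 1120 bp without V5. Their scores were higher too (medians of 922 and 203, compared with 226 and 91). Inside the same cluster, promoter class and width group (above or below the median) the odds ratio was 2.51 (2.01 to 3.14), and with the upper 50% of RNAPOL2 and H3K27ac peaks by score it was 2.06 (1.44 to 2.96). With peaks of all clusters compared together, it was 1.67 (1.51 to 1.85) in strata of promoter class alone, 0.740 (0.653 to 0.839) with width decile added and 0.523 (0.453 to 0.604) with score decile added. The higher share of RNAPOL2 on peaks with V5 thus held inside clusters, with a smaller ratio in coarse width groups, and turned around across clusters among peaks of like width or score. Width or score deciles inside clusters were not tested.

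V5 peaks themselves gave a related picture. RNAPOL2 overlapped 1041 of the 1345 promoter V5 peaks of the clusters (77.4%, 75.1 to 79.6) and 807 of their 2012 distal V5 peaks (40.1%, 38.0 to 42.3). Among V5 peaks outside the clusters that also overlapped H3K27ac, the shares were 85.8% at promoters (2250 of 2621, 84.5 to 87.1) and 17.5% at distal sites (337 of 1926, 15.9 to 19.3). Promoters without V5 of their own did not differ detectably by whether the fusion lay elsewhere in their cluster. RNAPOL2 was found at 734 of 813 such acetylated protein-coding promoters in fusion-holding clusters (90.3%, 88.1 to 92.1) and at 1123 of 1260 in fusion-free clusters (89.1%, 87.3 to 90.7), with an odds ratio of 1.00 (0.744 to 1.36, Cochran-Mantel-Haenszel chi-square p = 0.979, adjusted p = 0.979).

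Ranked by V5 number, with ties at 8 V5 peaks broken by H3K27ac number and then width, the first 20 clusters held 200 V5 peaks, of which 135 were distal. All 20 held RNAPOL2, and 4 of them held no protein-coding TSS. The first, on chromosome 13 (126 kb), held 15 V5 peaks and 10 H3K27ac peaks, 8 of them with V5, around Auh, which encodes an enzyme of leucine breakdown that also binds AU-rich RNA. Its V5 scores ran from 47 to 4927 with a median of 237, and RNAPOL2 covered 79.3% of its width. The second, on chromosome 17 (134 kb), was the widest of all, with 14 V5 peaks and 23 H3K27ac peaks, 12 of them with V5, and starts of Atp6v0e, Ergic1 and Dusp1. It contains only an upstream start of Dusp1, so the main Dusp1 promoter is not within it. RNAPOL2 covered 15.9% of it, and 9 of its 14 V5 peaks overlapped RNAPOL2.

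The remaining leaders differed widely in RNAPOL2. The Klf14 cluster (11 V5 peaks, 99 kb) has its nearest protein-coding TSS 102103 bp away, and 74.2% of its width was covered by RNAPOL2. The Celf4 cluster (11 V5 peaks, 106 kb), inside a gene for an RNA-binding splicing regulator, held the highest-scored V5 peak of the whole list (23478), and all 11 V5 peaks overlapped RNAPOL2. The Tmem182 cluster (11 V5 peaks, 53.2 kb) was the opposite, since all 11 V5 peaks were distal, with a median score of 875, and only 2 overlapped RNAPOL2, which covered 3.82%. Likewise 1 of the 10 V5 peaks of the Gdap2 cluster overlapped RNAPOL2, which covered 1.53%. Slc23a2, which encodes a vitamin C transporter, lay in a cluster of 10 V5 peaks with 86.4% under RNAPOL2, and Sulf2, an enzyme that removes sulfate from heparan sulfate, in one of 10 with 54.9%. A cluster of histone genes (Hist1h1a to Hist1h4c) with Hfe held 14 protein-coding genes, the most of any fusion-holding cluster, and 8 of its 9 V5 peaks were at promoters.

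**Figure D4:**
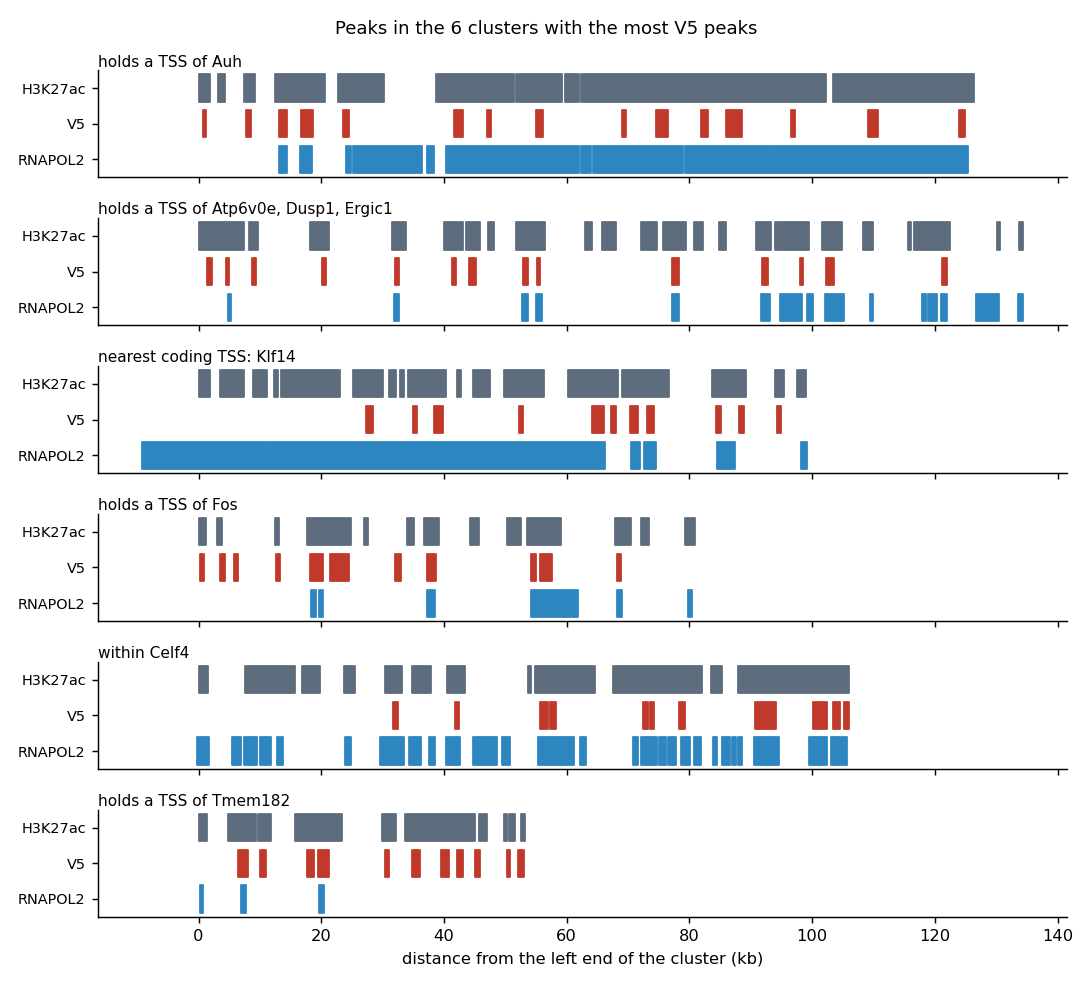
Peaks of the 3 lists in the 6 clusters with the most V5 peaks, drawn to scale in kb from the left end of each cluster. H3K27ac is grey, V5 red and RNAPOL2 blue, and an RNAPOL2 peak may extend past the cluster. V5 peaks are spread along each cluster, and RNAPOL2 ranges from 79.3% of the width at Auh to 3.82% at Tmem182.

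More H3K27ac peaks did not always mean more of the fusion. Among the 10 fusion-holding clusters with the most H3K27ac peaks, those of Trak1 and of Rxra, a nuclear receptor that pairs with many others, had 17 H3K27ac peaks each over 119 and 116 kb. Each held a single V5 peak with a score of 122. The cluster of Nfix, a transcription factor of the nuclear factor I family, held 21 H3K27ac peaks and 3 V5 peaks, the highest scoring 174. In contrast, the 5 densest clusters with at least 3 V5 peaks were 4.82 to 9.03 kb wide and held no protein-coding TSS. They lay near Nnt (6.22 V5 peaks per 10 kb), within Mfhas1 (5.17), near Edn1 (4.75), which encodes the vasoconstrictor endothelin, within St6galnac3 (4.44) and near Perp (4.43). The nearest protein-coding TSS lay 127872 bp away for Nnt, 21735 bp for Edn1 and 44291 bp for Perp. Of the 5 clusters only that of Mfhas1 held an RNAPOL2 peak.

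A total of 84 clusters had at least 3 V5 peaks and no RNAPOL2 peak. The widest of them lay near Bnc2 (46.7 kb wide, 3 V5 peaks), near Syk (39.5 kb, 3), at Ptn (36.8 kb, 3), near Dcdc2c (36.5 kb, 4) and near Wdr11 (33.3 kb, 5). Near stands for the nearest protein-coding TSS, which was 270287 bp away for Bnc2, 76442 bp for Syk and 114394 bp for Dcdc2c. All V5 peaks of these clusters were distal. Ptn, which encodes the growth factor pleiotrophin, was the only one with a TSS in the cluster, and its 3 V5 peaks scored 953, 1177 and 3037. The highest V5 score was 9461 near Dcdc2c and 5033 near Wdr11, a cluster that lay 148968 bp from that TSS. Among the widest clusters with no protein-coding TSS, those within Rab3c (92 kb, 8 V5 peaks) and Ccdc60 (80.4 kb, 4 V5 peaks) had RNAPOL2 over 72.0% and 45.0% of their width.

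Genes that respond to cyclic AMP were examined as the textbook targets of ATF/CREB factors. Of 25 immediate early genes of this kind, 10 had a TSS in a fusion-holding cluster (40%, against 8.25% of all protein-coding genes), 1 in a fusion-free cluster and 14 in neither, while 18 had V5 at their own promoter (16.6% of all protein-coding genes did, 3640 of 21938). The list was chosen with earlier results of these data known, and its share was not tested. Among the 10 in fusion-holding clusters, the highest V5 scores were in the clusters of Pde4d, Nr4a1, Sik1 and Btg2, an antiproliferative gene. Nr4a3 and Nr4a2, relatives of Nr4a1 in neither kind of cluster, had promoter V5 scores of 4016 and 3018. The 4 V5 peaks of the Pde4d cluster (34.7 kb) scored 532, 2596, 4404 and 113, all of them distal and all with RNAPOL2. The 6 V5 peaks of the Nr4a1 cluster (54.5 kb) scored 3194, 692, 200, 1209, 351 and 496 from left to right, and the highest was distal, 7778 bp from the Nr4a1 start. The Sik1 cluster (25.2 kb) held 1 V5 peak of score 2059 at the promoter, and RNAPOL2 covered 60.5% of it. In the Btg2 cluster (43.1 kb) the promoter peak scored 212 and the distal peak, 14056 bp away, 1790. Pde4b, a further cyclic AMP phosphodiesterase, lay in a cluster of 63.7 kb with 8 V5 peaks that scored between 50 and 1047.

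Of the 8 genes in the list of Creb1, its closest relatives and its coactivators, none had a TSS in a fusion-holding cluster and 4 had V5 at their own promoter. With so few genes, a count of 0 is not set apart from the background of 8.25%. Crem, the cyclic AMP response modulator, had a promoter V5 peak of score 19716, and Creb1 one of 3795. Crtc2 and Crtc3, coactivators of CREB, lay in fusion-free clusters. Of 31 other bZIP genes, 12 lay in fusion-holding clusters (38.7%) and 3 in fusion-free clusters. The highest V5 score was at Creb5, whose cluster (35 kb) held 6 V5 peaks of 8718, 272, 153, 153, 1443 and 1016. The highest of these lay 10279 bp from the nearest annotated Creb5 start, and the peak at that start scored 153. Nfil3, a bZIP repressor, lay in a cluster of 26.1 kb with 3 V5 peaks of 3115, 506 and 2767, and RNAPOL2 covered 82.0% of it. Dbp, a clock output gene, lay in a cluster whose highest V5 peak (2889) was nearest to the start of Rpl18, and the Bach1 cluster held 4 V5 peaks.

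AP1 genes encode the FOS and JUN partners that bind TGAGTCA, and the list of 10 used here also includes Batf genes. They were in fusion-holding clusters in 4 of 10 cases (Fos, Fosb, Junb and Jund) and in fusion-free clusters in 3 (Batf, Batf2 and Batf3). The Fos cluster (80.9 kb) was by far the richest, with 11 V5 peaks against 2 in each of the other 3. From left to right its V5 scores were 301, 142, 326, 94, 1618, 1843, 769, 483, 84, 1149 and 316. The peak of 1149 covered the Fos start region. The higher-scored peaks of 1618 and 1843 lay 37024 and 33314 bp from the Fos start, each within 3 kb of a noncoding start. RNAPOL2 overlapped 5 of the 11, and at the Fos promoter its highest score was 4346. At Fosb, Junb and Jund the highest V5 scores were 354, 428 and 218, and the highest promoter RNAPOL2 scores, on their own scale, were 399, 6883 and 18012.

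MAP kinase feedback genes were in fusion-holding clusters in 3 of 15 cases (20%). They were Dusp6, Dusp1 and Dusp10, all phosphatases of MAP kinases. The Dusp6 cluster (34.1 kb) held 7 V5 peaks. The distal ones scored 2653, 1259 and 3057, and the 2 nearest to the Dusp6 start were the lowest of the 7, the smaller of them at 67. In the list of neural crest and mesenchymal transcription factors 3 of 25 were found, namely Tcf4, Prrx1 and Nfix. Prrx1, a homeobox gene of limb mesenchyme, had 4 V5 peaks with a highest score of 693, and RNAPOL2 covered 79.2% of the cluster. Among 20 receptor tyrosine kinases 2 were found, of which Epha2 had 4 V5 peaks of up to 2004. The 17 TGF-beta and YAP target genes gave 4, Ccn2, Smad3, Ski and Tgif1. The Ccn2 cluster (30.1 kb) held 4 V5 peaks of 1325, 67, 50 and 1615, and the outer peaks, which were the high ones, were distal and had no RNAPOL2.

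Matrix genes are the main product of fibroblasts and other mesenchymal cells. Of 20 collagen and matrix genes, 2 lay in fusion-holding clusters (Col6a1 and Col12a1, each with 1 V5 peak) and 4 in fusion-free clusters (Col1a1, Col1a2, Col6a2 and Sparc). The Sparc cluster (74.3 kb) had 11 H3K27ac peaks and 9 RNAPOL2 peaks, the Col1a2 cluster (54.8 kb) had 10 and 6, and neither held V5. The fusion-free clusters with the most H3K27ac peaks were those of Actn4 (18), a group of type I interferon genes (15), Ahdc1 with Wasf2 (14), Aprt with Piezo1 (13) and Cyth1 (12). Of 20 cytosolic ribosomal protein genes, 7 lay in fusion-holding clusters (35%), with a highest V5 score of 1174 in the Rps2 cluster.

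Cell type markers were counted because whole tumours were used. None of 12 skeletal muscle markers and none of 15 melanocyte genes had a TSS in a fusion-holding or a fusion-free cluster. An H3K27ac peak lay at the promoters of 5 of the 15 melanocyte genes (58.6% of all protein-coding genes had one, 12846 of 21938), with the highest scores at Pmel (822), a protein of the pigment granule, and Mitf (372), the melanocyte regulator. Dct, 1 of the 15, had V5 at its promoter (218), and 16.6% of all protein-coding genes had V5 at theirs (3640 of 21938). Of 10 immune markers, Spi1 and Cd68 lay in fusion-holding clusters, and of 8 endothelial markers Erg and Egfl7 did, each with 1 V5 peak. Pecam1, an endothelial marker, lay in a fusion-free cluster. None of these immune and endothelial markers had V5 at its own promoter, compared with the 16.6% of all protein-coding genes. How far other cells of the tumour contribute to these clusters was not tested. Among 15 genes the study singles out, 4 lay in fusion-holding clusters. They were Fos, Junb, Nfil3 and Fam43a, and the Fam43a cluster (26.2 kb) had V5 peaks of 84, 76, 469 and 9883, of which the highest was distal and lay 11053 bp from the start. The other 11 lay in no cluster of either kind, among them Crem, Nono, Runx1, Runx2, Tceal8, Mitf, Fosl1, Trp53, Sox10 and Tfap2a.

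Motifs were counted in the central 300 bp of each V5 peak. In fusion-holding clusters 188 of 3357 V5 peaks held the canonical motif (5.60%, 4.87 to 6.43), 480 the AP1 motif (14.3%, 13.2 to 15.5), 747 a variant (22.3%, 20.9 to 23.7) and 164 a string (4.89%, 4.21 to 5.67). At least 1 of these was held by 1313 (39.1%). For scale, 1.79% of 32851 RefSeq promoters of the same length (GRCm38.p6) held the canonical motif, 5.20% the AP1 motif, 12.48% a variant and 1.83% a string. The V5-free H3K27ac peaks of the same clusters held the canonical motif in 13 of 4150 windows (0.313%, 0.183 to 0.535), and the odds ratio within promoter class was 19.0 (10.9 to 33.3, Cochran-Mantel-Haenszel chi-square adjusted p = 5.67e-46). For strings it was 3.67 (2.70 to 4.99, chi-square adjusted p = 3.82e-18), for variants 2.23 (1.96 to 2.53, adjusted p = 7.55e-36) and for AP1 1.48 (1.28 to 1.70, adjusted p = 9.29e-08). All 4 motifs were therefore more frequent in the middle of V5 peaks than in the middle of V5-free H3K27ac peaks of these clusters. This held under each of the 9 alternatives computed for each motif. Peaks were compared within promoter class and not within the same cluster. V5-free H3K27ac peaks were wide (medians of 1480 bp at promoters and 1120 bp at distal sites), so much of their sequence was not searched. V5 peaks of the clusters had a median of 770 bp. The ratio for the canonical motif ranged widely, from 6.70 (3.01 to 14.9) without H3K27ac peaks near a TSS and 10.4 (6.60 to 16.3) with the upper 50% of V5 peaks to 19.2 in the central 100 bp.

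**Figure D5:**
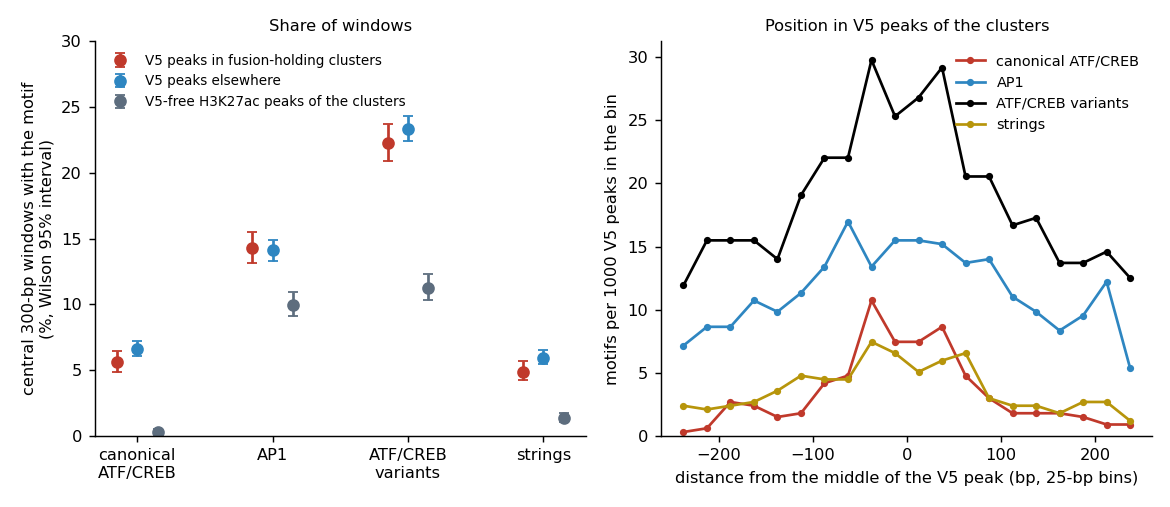
Left, the percentage of central 300-bp windows with each motif, with Wilson 95% intervals, in V5 peaks of fusion-holding clusters (red), V5 peaks elsewhere (blue) and V5-free H3K27ac peaks of the clusters (grey). The grey shares, from 0.313% for the canonical motif to 11.3% for variants, are the lowest for each motif. Right, motif middles per 1000 V5 peaks of the clusters in 25-bp bins of distance from the peak middle, where the canonical motif is highest within 50 bp of the middle.

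Promoter and distal V5 peaks of the clusters differed in motif. The canonical motif was held by 8.33% of the promoter peaks (6.97 to 9.93) and 3.78% of the distal peaks (3.03 to 4.70). AP1 motifs were held by 9.96% (8.47 to 11.7) and 17.2% (15.6 to 18.9), variants by 17.2% (15.3 to 19.4) and 25.6% (23.7 to 27.5), and strings by 2.60% (1.88 to 3.60) and 6.41% (5.42 to 7.57). Per cluster, 178 of the 1508 had a canonical motif under at least 1 V5 peak (11.8%), 405 an AP1 motif (26.9%), 559 a variant (37.1%), 156 a string (10.3%) and 866 any of them (57.4%). V5 peaks with a string had a median score of 581.5, compared with 241 without, and those with the canonical motif 337.5 compared with 247. In the 835 clusters with 2 or more V5 peaks, the highest-scored one held a string in 8.62% (6.90 to 10.7), compared with 3.46% of the others (2.72 to 4.40), and a canonical motif in 7.07% (5.52 to 9.01) compared with 3.73% (2.96 to 4.70). For AP1 the shares were 15.9% (13.6 to 18.6) and 14.8% (13.3 to 16.5).

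V5 peaks inside and outside the clusters were also compared. For AP1 and variants the promoter and distal classes went opposite ways. At promoters the AP1 motif was held by 9.96% inside (8.47 to 11.7) and 6.37% outside (5.54 to 7.30), and variants by 17.2% (15.3 to 19.4) and 12.1% (11.0 to 13.3). At distal sites AP1 was held by 17.2% inside (15.6 to 18.9) and 19.5% outside (18.3 to 20.7), and variants by 25.6% (23.7 to 27.5) and 31.1% (29.7 to 32.5). The canonical motif was held by 8.33% inside and 10.6% outside at promoters and by 3.78% and 3.91% at distal sites, and strings by 2.60% and 2.61% at promoters and by 6.41% and 8.26% at distal sites. The pooled odds ratios that follow average over these classes, and the difference between the classes was not tested. Within promoter class the odds ratio for strings was 0.804 (0.668 to 0.967, Cochran-Mantel-Haenszel chi-square p = 0.0206, adjusted p = 0.0353), with 4.89% inside and 5.95% outside. It turned to 1.16 (0.921 to 1.45) when V5 peaks without H3K27ac were left out. The canonical motif gave 0.841 (0.706 to 1.00, chi-square adjusted p = 0.0780), variants 0.932 (0.844 to 1.03, adjusted p = 0.213) and AP1 1.01 (0.896 to 1.13, adjusted p = 0.967). With only acetylated V5 peaks compared, the canonical motif was less frequent inside (0.780, 0.648 to 0.940, chi-square adjusted p = 0.0155). The pooled ratio for variants was then above 1 (1.21, 1.08 to 1.35, chi-square adjusted p = 0.00198). The higher share of variants inside was seen at promoters and not at distal sites. Acetylated V5 peaks outside held variants in 8.89% at promoters and 27.4% at distal sites. Inside, 17.2% and 25.6% of all V5 peaks did, acetylated or not.

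The clusters of listed genes showed which motif lay where. Under the 14 V5 peaks of the Dusp1 cluster, 4 windows held AP1 motifs, 5 variants and 1 the canonical motif. Of the 11 windows of the Fos cluster, 7 held no motif of these kinds, among them the 2 highest-scored and the one at the Fos start. In the Creb5 cluster the highest-scored window held a variant. The highest-scored window of the Fam43a cluster held a string. All 4 windows of the Pde4d cluster held a motif, 3 of them variants and 2 strings.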

How the data were processed

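Mouse tumours were profiled by the authors by ChIP-seq with antibodies against V5, RNAPOL2 and H3K27ac, 4 labelled samples each, and on 4 input samples. The submitters' processing notes name BWA (0.7.10-r789), MACS2 (2.2.6) and mm10, and the study's methods name input as the background, the broad setting for H3K27ac and the removal of peaks in denylisted regions. The deposited lists, 1 for each antibody, hold coordinates and a score, a whole number given by the authors whose scale is not stated. How samples were pooled and the depth of each are not given in the lists, so no values per sample were used.

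H3K27ac peaks were stitched across gaps of at most 12 kb, and peaks overlapped when they shared 1 bp. Genes and TSSs came from GENCODE vM21, and sequence and motifs from GRCm38. RNAPOL2 covered share is the percentage of cluster width under RNAPOL2 peaks. Mantel-Haenszel odds ratios have Robins-Breslow-Greenland 95% intervals, and Cochran-Mantel-Haenszel tests, two-sided, were adjusted by Benjamini-Hochberg over 12 tests at a threshold of 0.05. The strata of H3K27ac peak number were 3, 4, 5, 6 to 7, and 8 or more. Wilson and exact Poisson intervals cover counting error only, and neighbouring peaks are not independent. The functions were tested on simulated data. Calculations used scipy 1.17.1 and statsmodels 0.14.6 with pandas 2.3.3 and numpy 2.4.6 in Python 3.11.15, and plots matplotlib 3.10.9.

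The members, gene lists and tests were chosen with earlier results of these data known. Named clusters were the 20 with the most V5 peaks, the 10 with the most H3K27ac peaks, the 5 densest with at least 3 V5 peaks, the 5 widest with at least 3 V5 peaks and no RNAPOL2, the 5 widest without a protein-coding TSS, the 5 fusion-free clusters with the most H3K27ac peaks, up to 4 genes of each list by V5 score, and the genes the study singles out. Other genes, and the values of single peaks, were chosen after the values had been seen. A cluster was named by a protein-coding TSS in it, or else by the gene it lies in or the nearest TSS. Alternatives changed the gap, the peak number, the overlap, the promoter window, the score filter, the strata and the motif window. Some listed genes are not reported here by name.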

Additional observations from a re-analysis of the deposited data

How the results depend on the processing

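No paired analysis was possible because the lists hold no values per sample. Of 142 recomputed values, 104 kept their call, moved by less than their error or, for the count of clusters, stayed within the limit set for counts (down to 1025). The count of 1508 fusion-holding clusters became 846 with a gap of 5 kb, 564 with at least 5 H3K27ac peaks, 423 with the upper 50% of RNAPOL2 and H3K27ac peaks by score, 656 without H3K27ac peaks near a TSS and 1025 with the upper 50% of V5 peaks. Under the first 4 of these choices the V5 density of fusion-holding clusters, 0.852 per 10 kb, became 1.34, 0.729, 0.924 and 1.09, and 0.630 with the upper 50% of V5 peaks.

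The odds ratio for an RNAPOL2 peak in fusion-holding clusters (0.966) was 1.35 with a gap of 5 kb, 1.79 with at least 5 H3K27ac peaks, 1.49 without H3K27ac peaks near a TSS, 1.39 with promoter presence in the strata, and 1.44 for covered share, each past the threshold, and 1.14 without strata, which was not. It was 0.655 with the upper 50% of V5 peaks, 0.297 with the upper 50% of the other lists and 0.621 in strata of acetylated bases, each past the threshold in the opposite direction. For coding promoters (0.495) it was 0.931 without H3K27ac peaks near a TSS, no longer past the threshold, and 0.178 with the upper 50% of RNAPOL2 and H3K27ac peaks. For RNAPOL2 on H3K27ac peaks with V5 (4.25) it was 1.67 in strata of promoter class alone, and 0.740 and 0.523 with width and score deciles added, all without cluster strata, and 2.51 with cluster and width group. With cluster strata it was 2.06 with the upper 50% of RNAPOL2 and H3K27ac peaks. For V5-free promoters (1.00) it was 0.838 with the upper 50% of V5 peaks and 0.743 with that of the other lists, and 1.90 with a gap of 5 kb, 1.47 with at least 5 H3K27ac peaks and 2.32 (0.183 to 29.4) without H3K27ac peaks near a TSS, none of them past the threshold.

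Inside against outside clusters, the canonical motif (0.841) passed the threshold at 0.660 with a gap of 5 kb, 0.699 with the upper 50% of V5 peaks and 0.780 on acetylated V5 peaks. AP1 (1.01) was 0.984 with at least 5 H3K27ac peaks, 0.987 with the upper 50% of V5 peaks, 0.970 with a promoter window of 1 kb and 0.887 without H3K27ac peaks near a TSS. Variants (0.932) were 0.894 and 0.830 under the last 2 choices and 1.21 on acetylated V5 peaks, all 3 past the threshold. Strings (0.804) lost the threshold at 0.899 (5 kb), 0.912 (at least 5 peaks), 0.815 (upper 50% of V5 peaks) and 0.935 (near a TSS left out), and were 1.16 on acetylated V5 peaks. The strata of acetylated bases, width and score, the covered share and the restriction to acetylated V5 peaks were chosen after seeing the data. Against V5-free H3K27ac peaks, the canonical motif (19.0) was 6.70 without H3K27ac peaks near a TSS and 10.4 with the upper 50% of V5 peaks, both past the threshold. Which cause underlies these changes was not tested. With 1 list per antibody, no limit from depth could be given.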
